A study of Mus musculus with 2 samples.

Results

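The genes of de novo lipogenesis, the route by which the liver builds fatty acids from carbohydrate carbon, were followed in spatial transcriptomes of an AEG-1-WT and an AEG-1-C75S mouse liver. The members were Fasn, Acaca, Acly, Scd1, Me1, Elovl6, Srebf1, Thrsp and Pnpla3, chosen by symbol for their known place in the pathway. They were chosen with earlier results of these data known. Of these 9 genes, 8 were analysed among the 19465 genes of each count table, and Elovl6, an elongase of palmitate, was not analysed here. At least 50 unique molecular identifiers (UMIs) over both sections, the minimum for a ratio, were reached by 7 members, all but Pnpla3.

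AEG-1 is a scaffold protein of the endoplasmic reticulum encoded by Mtdh, and the AEG-1-C75S mouse carries a CRISPR/Cas9 knock-in that changes cysteine 75, a site of palmitoylation, to serine. The AEG-1-WT animal, WT for short, had the unmodified protein, and the AEG-1-C75S animal, C75S for short, the mutant. Both were untreated female littermates of 8 weeks from matings of heterozygotes, and the same liver lobe was taken from each. The methods of the paper give neither the feeding state of the animals nor the hour of harvest. The 10x Visium assay for fixed tissue was used on a 5 μm section of each, where probe pairs are ligated on the RNA they bind and caught on barcoded spots.

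There was 1 section per genotype, and thus no replicate and no test between genotypes. Every ratio compares those libraries and not the conditions, spots are not replicates, and every interval given below is a 95% interval for counting error alone. After spots above 50000 UMIs were left out, the WT section had 2309 spots with 42246988 UMIs and the C75S section 2163 spots with 41674347 UMIs. The median spot held 16830 UMIs in WT and 18808 in C75S. The sections shared 1896 spot barcodes, which are position codes of the slide and do not mean shared tissue. A spot covers several cells, so a smaller number of cells of a type and less RNA per cell cannot be told apart. The tissue had the hepatocyte transcripts its label calls for, since Alb, Apoa1, Ttr and Fgb together made up 175599 CPM (UMIs of a gene scaled to a total of 1000000 UMIs) in WT and 183896 in C75S.

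In hepatocytes, citrate exported from mitochondria is cleaved to acetyl-CoA by ATP citrate lyase, carboxylated to malonyl-CoA by acetyl-CoA carboxylase and extended to palmitate by fatty acid synthase with NADPH from malic enzyme and other sources. Palmitate is then elongated and desaturated before it enters triglycerides and phospholipids. The pathway is switched on after feeding by insulin, which acts through the transcription factor SREBP-1c, and by glucose, which acts through ChREBP.

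The promoters of 3 members are shown because Thrsp had the largest ratio between the sections and Acly and Fasn the largest ratios along the liver lobule in WT. Each sequence gives the 250 bases before the start of the gene in RefSeq, build GRCm38.p6, on the minus strand and written 5′ to 3′. Capitals mark the NF-Y box (CCAAT, or ATTGG where it lies on the other strand) and the GC box (GGGCGG, or CCGCCC on the other strand). The windows are chr7:97417551-97417800 for Thrsp, chr11:100528001-100528250 for Acly and chr11:120824548-120824797 for Fasn.
Thrsp: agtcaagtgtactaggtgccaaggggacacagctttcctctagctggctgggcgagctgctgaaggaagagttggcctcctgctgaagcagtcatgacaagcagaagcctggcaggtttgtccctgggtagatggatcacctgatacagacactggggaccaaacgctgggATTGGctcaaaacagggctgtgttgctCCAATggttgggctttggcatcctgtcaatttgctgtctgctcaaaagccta
Acly: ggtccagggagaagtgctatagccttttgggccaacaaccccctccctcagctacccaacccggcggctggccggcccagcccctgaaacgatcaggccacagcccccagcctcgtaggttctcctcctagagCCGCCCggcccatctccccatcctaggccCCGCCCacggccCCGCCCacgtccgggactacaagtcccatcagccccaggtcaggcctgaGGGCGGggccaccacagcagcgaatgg
Fasn: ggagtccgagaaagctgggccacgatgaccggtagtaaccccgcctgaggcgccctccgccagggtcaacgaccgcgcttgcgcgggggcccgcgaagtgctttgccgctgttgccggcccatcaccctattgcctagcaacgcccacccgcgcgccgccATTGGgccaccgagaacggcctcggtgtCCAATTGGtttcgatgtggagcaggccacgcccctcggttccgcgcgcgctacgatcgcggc

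In these windows the letters CCAAT began 79 and 52 bases before the start in Thrsp, and 90, 62 and 59 bases before it in Fasn, where the last pair overlap on opposite strands. Acly had no CCAAT and 4 GC boxes, which began 117, 88, 76 and 27 bases before its start. Over the 11 promoters in the RefSeq table that belong to 8 of the members (Scd1 had no entry), CCAAT was found in 6 promoters of 5 members and the GC box in 5 promoters of 4 members, against 33.8% and 32.7% of all 32851 promoters of this length. The motifs searched for SREBP and for E-box factors, TCACNCCAC and CACGTG, were in none of the members' windows and in 1.05% and 6.02% of all promoters. Both strands were searched. These matches describe letters and not binding, and a window without a match says nothing about the factor.

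By the mm10 positions of GENCODE, 4 of the 8 members measured lie on chromosome 11. These are Srebf1 (chr11:60199089-60222581), Acaca (chr11:84129672-84401651), Acly (chr11:100476353-100528000) and Fasn (chr11:120805846-120824547). The others are Thrsp (chr7:97412938-97417730), Me1 (chr9:86581371-86695953), Pnpla3 (chr15:84167837-84187236) and Scd1 (chr19:44394455-44407879). All 8 are annotated as protein-coding.

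Between the sections, the members went in different directions. Scd1 was 2.01-fold higher in C75S, Thrsp 3.10-fold lower, Acly and Fasn modestly lower, Me1 modestly higher, and Acaca and Srebf1 were nearly level. Read as calls past 0.5 in log2 ratio (1.41-fold), 1 of the 7 members was higher and 1 was lower in C75S, where the same limits took in 3.33% (higher) and 7.08% (lower) of the 11998 genes with at least 50 UMIs. The median log2 ratio of the members was -0.17, beside -0.05 for all genes, of which 90% lay between -0.60 and 0.40. Scd1 and Thrsp lay far outside the other 5 members, at opposite ends.

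The enzymes that make palmitate differed little. Fatty acid synthase, encoded by Fasn, had 6664 UMIs or 158 CPM in WT and 5605 UMIs or 134 CPM in C75S. Its log2 ratio of C75S over WT was -0.23 (interval -0.28 to -0.18), and it was lower in all 5 positions along the lobule. Acaca, the gene of the carboxylase that commits acetyl-CoA to fatty acid synthesis, had 5266 UMIs (125 CPM) in WT and 5455 (131 CPM) in C75S, a log2 ratio of 0.07 (0.02 to 0.13). In CPM, Acaca was the member with the smallest difference. That rank depended on the scaling. With ratios centred on the median gene, Srebf1 differed less, at -0.11 against 0.12 for Acaca.

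ATP citrate lyase, the cytosolic source of acetyl-CoA, was lower in the mutant section. Acly had 8964 UMIs (212 CPM) in WT and 6991 (168 CPM) in C75S, a log2 ratio of -0.34 (-0.38 to -0.29). Me1, the malic enzyme that supplies NADPH, went the other way, with 2758 UMIs (65.3 CPM) in WT and 3386 (81.2 CPM) in C75S, a log2 ratio of 0.32 (0.24 to 0.39). All of these ratios stayed within the range that held 90% of all genes.

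Scd1 encodes the stearoyl-CoA desaturase that turns saturated fatty acids into oleate and palmitoleate. It had 29624 UMIs (701 CPM) in WT and 58865 (1412 CPM) in C75S, a log2 ratio of 1.01 (0.99 to 1.03). Only 69 of the 11998 genes, 0.575%, had a higher ratio. The difference ran through the whole section and not through a few spots. The median spot held 6.69 Scd1 UMIs per 10000 in WT and 13.8 in C75S, with 90% of spots between 3.26 and 11.3 in WT and between 8.48 and 20.6 in C75S. In C75S, 98.2% of spots lay above the WT median, while 1.17% of WT spots lay above the C75S median.

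Of the regulators, Srebf1 encodes SREBP-1, the transcription factor that insulin raises to drive the lipogenic enzymes. It had 2180 UMIs (51.6 CPM) in WT and 1915 (46.0 CPM) in C75S, a log2 ratio of -0.17 (-0.26 to -0.08). The counts are per gene, so SREBP-1a and SREBP-1c are not separated. Srebf1 was the median member, and its ratio changed sign to 0.06 when every spot was thinned to 3000 UMIs, which left it 344 UMIs in WT and 337 in C75S.

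Thrsp encodes Spot 14, a small protein of lipogenic tissues that responds to thyroid hormone, insulin and carbohydrate. It had 5664 UMIs (134 CPM) in WT and 1805 (43.3 CPM) in C75S, a log2 ratio of -1.63 (-1.71 to -1.55). Of all genes tested, 44 of the 11998 genes, 0.367%, had a lower ratio. Any Thrsp UMI was found in 86.3% of spots in WT and 52.1% in C75S. The median spot held 1.24 Thrsp UMIs per 10000 in WT and 0.315 in C75S. In WT 86.1% of spots lay above the C75S median, and in C75S 8.65% of spots lay above the WT median. The 86.1% is nearly the share of WT spots with any Thrsp UMI, so it describes detection more than level.

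Pnpla3, the gene of a lipid droplet protein that remodels triglycerides and that carbohydrate feeding raises, was almost absent from the counts. It had 4 UMIs on 4 spots of WT, or 0.0947 CPM (interval 0.0258 to 0.242). It had 0 UMIs in C75S, for which a floor of 3 UMIs is 0.072 CPM and the exact interval reaches 0.0885 CPM. No ratio was computed from these counts.

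**Figure D1:**
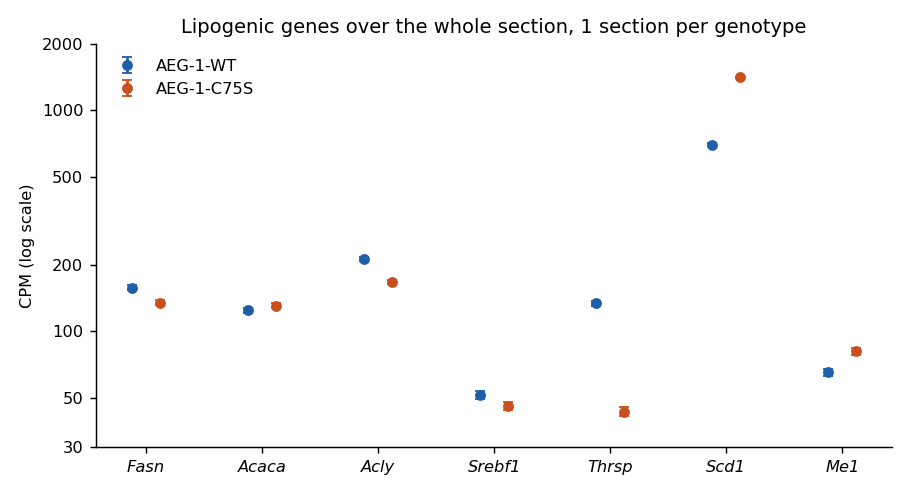
Level of the 7 members in each section, in CPM on a log axis, with blue points for WT, orange points for C75S and bars for the exact 95% Poisson interval of the UMI sum, which covers counting error only. Scd1 lies at 701 in WT and 1412 in C75S and Thrsp at 134 and 43.3, while the points of the other 5 members lie close together.

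The position of a spot along the lobule was taken from the ratio of Cyp2f2, expressed around the portal vein, to Cyp2e1, expressed around the central vein, each with 1 UMI added. Spots of each section were divided into 5 bins of equal size by this ratio, from the most periportal to the most pericentral bin, with 461 or 462 spots each in WT and 432 or 433 in C75S. Markers that did not define the axis followed it. The summed level of Hal, Gls2, Hsd17b13, Arg1 and Pck1, markers of the periportal zone, ran from 6979 CPM in the most periportal to 3066 CPM in the most pericentral bin of WT and from 5495 to 2442 CPM in C75S. The pericentral markers Cyp1a2 and Oat ran the other way, from 382 to 2715 CPM in WT and from 348 to 2174 CPM in C75S.

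Along this axis the enzymes of palmitate synthesis were highest around the portal vein in both sections. In WT the log2 ratio of the most periportal over the most pericentral bin was above 0.5 for 4 of the 7 members, Acly, Fasn, Thrsp and Acaca, against 4.97% of 9931 genes. In C75S it was above 0.5 for 3 of the 7, Acly, Fasn and Acaca, against 3.8% of 9922 genes. No member was below -0.5 in either section, where 8.53% of genes in WT and 7.62% in C75S were. Acly, Fasn and Acaca were above 0.5 in both sections, which 2.22% of the genes measured in both were. Which members passed depended on the axis. With Hal and Cyp1a2 as its genes, Acaca was at 0.46 in WT and 0.47 in C75S, under the limit, and Thrsp at 0.62 and 0.57, over it in both sections. Thrsp in C75S was also past the limit with totals that left out the 20 most abundant genes, at 0.54, and with each end of the axis cut to 10% of spots, at 0.59. The median log2 ratio of the members was 0.59 in WT and 0.43 in C75S, beside -0.12 and -0.10 for all genes.

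The steepest member was Acly. From the most periportal to the most pericentral bin, Acly was at 301, 260, 199, 166 and 136 CPM in WT and at 227, 203, 158, 136 and 115 CPM in C75S. Every step was downward, and all 10 pairs of bins were separate beyond counting error in both sections. Its portal to central log2 ratio was 1.15 (1.04 to 1.25) in WT and 0.98 (0.87 to 1.10) in C75S, a difference of -0.16 (-0.32 to -0.01). The size of this difference depended on the setting, and it was not tested. With cut points set over both sections the ratios were 1.10 in WT and 1.01 in C75S, a smaller gap. With spots thinned to 3000 UMIs they were 1.15 and 0.84, a larger gap. Only 1.19% of genes in WT and 1.01% in C75S had a higher ratio.

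Fasn dropped mainly at the portal end. It was at 216, 160, 141, 135 and 140 CPM in WT and at 184, 132, 123, 112 and 123 CPM in C75S, so that the gap between the 2 most periportal bins was the largest step. Its portal to central log2 ratio was 0.62 (0.52 to 0.73) in WT and 0.58 (0.46 to 0.69) in C75S. The order of the bins was the same in both sections, with bin 4, next to the pericentral end, lowest and, in WT, not separate from its neighbours beyond counting error.

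Acaca declined at every step in WT, while in C75S bins 2 and 3 were level. It was at 153, 136, 122, 111 and 102 CPM in WT and at 161, 133, 133, 118 and 111 CPM in C75S. Its log2 ratio was 0.59 (0.46 to 0.72) in WT and 0.54 (0.41 to 0.66) in C75S. Of the 10 pairs of bins, 9 were separate in WT and 8 in C75S.

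Thrsp had a periportal slope of the same kind at both levels. It was at 176, 144, 127, 112 and 114 CPM in WT and at 53.7, 45.0, 40.5, 37.8 and 39.8 CPM in C75S. The log2 ratio was 0.62 (0.50 to 0.74) in WT and 0.43 (0.22 to 0.64) in C75S, and the interval of the difference, -0.42 to 0.05, includes 0. The highest bin of C75S lay below the lowest bin of WT.

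Scd1, Me1 and Srebf1 were nearly flat. Scd1 was at 678, 711, 715, 675 and 727 CPM in WT and at 1489, 1380, 1467, 1373 and 1362 CPM in C75S, so that the highest bin was 1.08 times the lowest in WT and 1.09 times in C75S. Its portal to central log2 ratio was -0.10 (-0.15 to -0.05) in WT and 0.13 (0.09 to 0.17) in C75S, and with totals that left out the 20 most abundant genes both were above 0, at 0.02 and 0.24. Me1 lay between 61.2 and 68.1 CPM over the bins of WT and between 77.7 and 84.2 CPM in C75S, with no pair of bins separate in either section. Srebf1 lay between 48.5 and 55.2 CPM in WT and between 41.4 and 48.2 CPM in C75S, with 0 of 10 pairs separate in WT and 2 of 10 in C75S. Its log2 ratio was 0.11 (-0.09 to 0.31) in WT and 0.21 (-0.0020 to 0.42) in C75S.

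**Figure D2:**
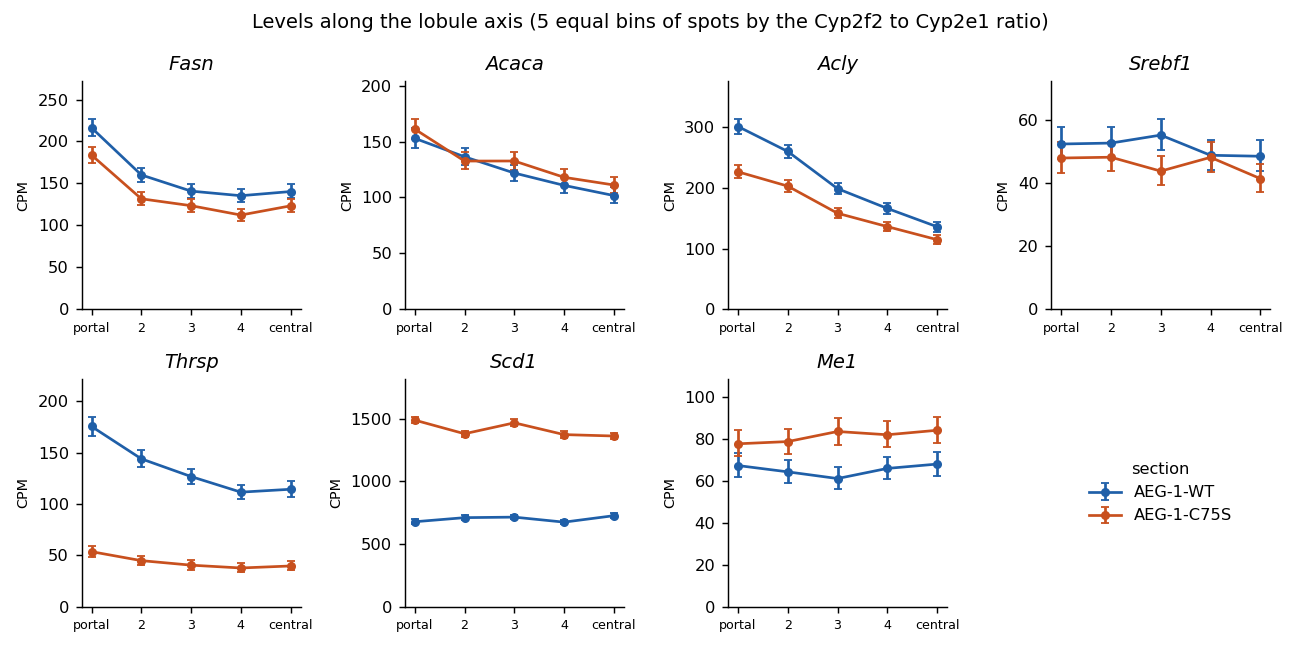
Level of each of the 7 members in CPM (vertical axis, from 0, with a scale of its own for each gene) over the 5 parts of the lobule axis from portal to central, in WT (blue) and C75S (orange), with exact 95% Poisson intervals. Acly, Fasn, Acaca and Thrsp slope down from the portal end in both sections, whereas Scd1, Me1 and Srebf1 are nearly flat.

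Taken position by position, the ratio between the sections kept its sign in every member but Acaca, though not always beyond counting error, and its size varied. Scd1 had a log2 ratio of C75S over WT between 0.91 and 1.13 over the 5 bins, from 1.13 (1.09 to 1.18) in the most periportal to 0.91 (0.86 to 0.95) in the most pericentral, and Thrsp between -1.71 and -1.53. The ratio of Acly lay between -0.41 and -0.25, that of Fasn between -0.28 and -0.19, and that of Srebf1 between -0.33 and -0.02. The interval of Srebf1 included 0 in bins 1, 2 and 4, at -0.33 to 0.08, -0.32 to 0.06 and -0.22 to 0.18. Me1 lay between 0.21 and 0.45, and Acaca between -0.04 and 0.13. The ratio was above 0 in every bin for 2 of the 7 members, Scd1 and Me1, against 14.8% of 9681 genes, and below 0 in every bin for 4 of the 7, Fasn, Acly, Srebf1 and Thrsp, against 26.4%. Acaca was above 0 in 4 bins and below it in 1. Below 0 in every bin were 3 members with equal weight per spot (22.9% of genes) or thinning to 3000 UMIs (17.8%). With totals that left out the 20 most abundant genes, 3 were below 0 in every bin (20.3%) and 3 above it (19.9%).

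**Figure D3:**
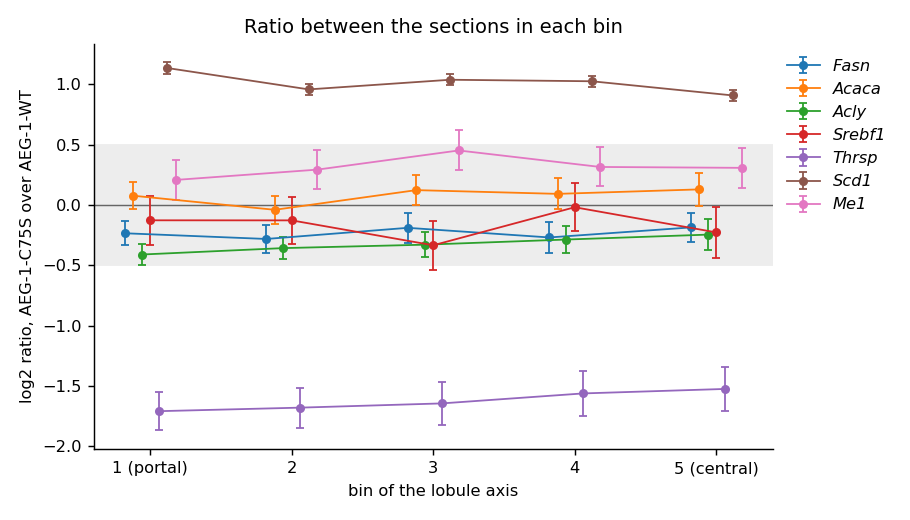
Log2 ratio of C75S over WT (vertical axis) of each member in each bin of the lobule axis (horizontal axis, portal to central), with 95% intervals for counting error and the band within 0.5 of 0 in grey. Scd1 stays between 0.91 and 1.13 and Thrsp between -1.71 and -1.53, and the other 5 members stay inside the grey band in every bin.

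**Figure D4:**
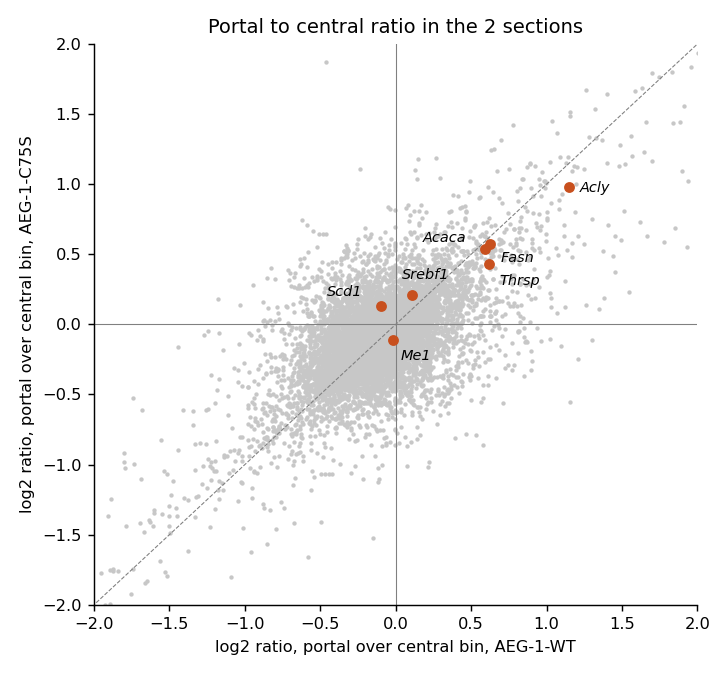
Log2 ratio of the most periportal over the most pericentral bin in WT (horizontal axis) and C75S (vertical axis) for the members (orange) and the other genes measured in both sections (grey, shown where within 2 of 0), with the line of equal ratios dashed. Acly lies at 1.15 and 0.98, Fasn, Acaca and Thrsp lie together near 0.6 in WT, and Scd1, Srebf1 and Me1 lie near 0.

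Over the spots of a section, Scd1, Fasn and Acly varied around the section mean by more than counting noise. This variation takes in the slopes along the lobule, whose part was not separated. The variance of the counts was 1.56 times that of Poisson counts for Scd1 in WT and 1.73 times in C75S, 1.42 and 1.39 times for Fasn, and 1.35 and 1.33 times for Acly. For Acaca, Srebf1, Thrsp and Me1 it lay between 0.965 and 1.18 times, highest for Thrsp in WT. The median spot held 1 or 2 UMIs of these 4 genes and 2 of Fasn, so that single spots say little about any of them. Within bins, the highest correlation over spots between members was that of Fasn and Scd1, with r = 0.17 over 2309 spots in WT and 0.12 over 2163 spots in C75S, where the median of Fasn with all genes was 0.01. Spots of a section share its library, and r of this size in sparse counts is given as a description only.

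Over the 10 values of a gene, 5 bins in each of 2 sections, the genes most like Fasn by Pearson correlation of log2 CPM were Suclg1 (r = 0.97), Atp5a1 (0.97), Fh1 (0.95), Cbs (0.95) and Pygl (0.94), of 6881 genes with at least 1000 UMIs. Suclg1, Atp5a1 and Fh1 encode mitochondrial enzymes of the citrate cycle and of ATP synthesis. Pearson r takes no account of the size of a slope, and these genes had shallower slopes than Fasn. Their portal to central log2 ratios in WT lay between 0.17 (Atp5a1) and 0.46 (Cbs), against 0.62 for Fasn. Among the members, Acly had r = 0.83 with Fasn, Acaca 0.70, Thrsp 0.63, Srebf1 0.50, Scd1 -0.41 and Me1 -0.45. The genes most like the mean of the members were Pck1, Got1, Mfsd2a, Uox and Hpx, with r between 0.98 and 0.99. The members themselves followed this mean unequally. Acly had r = 0.97 with it, Fasn 0.94, Acaca 0.80, Srebf1 0.66, Thrsp 0.63, Scd1 -0.39 and Me1 -0.50. Pck1 encodes the gatekeeping enzyme of gluconeogenesis and is a periportal marker. The 10 points share the axis, the library and its depth, and the correlations are descriptions.

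Around the members, 82 genes of 9 lists, which cover the supply, control and use of fatty acids and the neighbouring insulin and sterol pathways, were looked at, of which 78 were analysed and 74 reached 50 UMIs. Past 0.5 in log2 ratio, 8 of the 74 were higher and 5 lower in C75S, beside 3.33% and 7.08% of all genes, which also apply to the counts of each list that follow, and their median was -0.06, close to the -0.05 of all genes. Of the 74 genes, 61 lay within 0.5.

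Upstream of the members, the genes that supply acetyl-CoA and citrate lay within 0.5, 6 of 6, from Aco1, a cytosolic aconitase, at -0.18 to Pcx, pyruvate carboxylase, at 0.15. Cs, citrate synthase, was the most pericentral of these in WT, with a portal to central log2 ratio of -0.68. In glycolysis and fructose entry, whose 6 genes had a median of -0.08, Khk, ketohexokinase, was at 0.10. Pklr, liver pyruvate kinase and a target of ChREBP, was level between the sections at -0.06 and had the portal slope of the lipogenic enzymes, with 0.75 in WT and 0.79 in C75S.

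Of the partners of malonyl-CoA synthesis and the acyl-CoA synthetases, 1 of 6 genes was lower and none higher. It was Mid1ip1, a paralog of Thrsp that helps acetyl-CoA carboxylase to polymerise, at 74.0 CPM in WT and 42.2 CPM in C75S, a log2 ratio of -0.81 (-0.89 to -0.72). Thrsp and Mid1ip1 were thus both lower while Acaca, the gene of the enzyme Mid1ip1 acts on, was level. Acsl1, which activates long-chain fatty acids, was at 0.48.

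In elongation and desaturation 2 of 11 genes were higher, 1 of them on few UMIs, and none lower, beside 3.33% and 7.08% of all genes. Elovl5, an elongase of polyunsaturated fatty acids, was at 253 CPM in WT and 430 CPM in C75S, a log2 ratio of 0.76 (0.73 to 0.80). Elovl3 had the higher ratio of the pair, 0.86 (0.18 to 1.57), with 81 UMIs over both sections. Fads2, the delta-6 desaturase, was at -0.30, and Scd2, the paralog of Scd1, was at -0.17 with 668 UMIs over both sections and a portal to central log2 ratio of 0.89 (0.38 to 1.42) in WT. Scd1 and Scd2 are close paralogs, and the probe-based counting of each was taken as deposited. Hacd3, a dehydratase of elongation, had a portal to central ratio of -0.50.

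Among 5 genes of NADPH supply, G6pdx alone was past the limit, at 0.66 (0.10 to 1.23) with 115 UMIs over both sections. Pgd, the second dehydrogenase of the pentose phosphate pathway, was at 0.25 and Idh1, the cytosolic isocitrate dehydrogenase, at -0.18. Me1, at 0.32, was in the direction of Pgd.

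Of the 12 transcriptional regulators, 1, Insig2, was past the limit and higher, and none was lower by over 0.5. Insig2 encodes an anchor that holds SREBP in the endoplasmic reticulum and whose liver transcript insulin lowers. It was at 85.9 CPM in WT and 148 CPM in C75S, a log2 ratio of 0.78 (0.72 to 0.84). Insig1, the paralog that SREBP itself raises, was at 389 CPM in WT and 312 CPM in C75S, a log2 ratio of -0.32 (-0.35 to -0.28). Mlxipl, the gene of ChREBP, and Nr1h3, the gene of LXRα, were both at -0.10. Usf1 had the lowest portal to central log2 ratio of these regulators in WT, -0.57 (-0.996 to -0.153). In C75S Usf1 was at -0.089 (-0.538 to 0.358), an interval that takes in both signs. Mbtps2, the site-2 protease that cleaves SREBP, had the highest ratio in WT, 0.07 (-0.397 to 0.534). In C75S Mbtps2 was at -0.191 (-0.614 to 0.229). Its intervals take in both signs in each section, so no slope of Mbtps2 can be read from them.

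Downstream, 1 of 9 genes of triglyceride assembly was higher and none lower. Lpin1, a phosphatidate phosphatase and coactivator that fasting raises, was at 41.8 CPM in WT and 72.3 CPM in C75S, a log2 ratio of 0.79 (0.71 to 0.88). It had a periportal slope, 0.81 in WT and 0.66 in C75S. Dgat2, which makes the final ester bond of triglycerides, was at 764 CPM in WT and 563 CPM in C75S, a log2 ratio of -0.44 (-0.46 to -0.42).

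In the list of insulin signalling 3 of 8 genes were higher and none lower, beside 3.33% and 7.08% of all genes. The largest ratio of all the lists was that of Igfbp1, the binding protein of insulin-like growth factors whose liver transcript insulin represses, at 48.8 CPM in WT and 309 CPM in C75S, a log2 ratio of 2.66 (2.59 to 2.73). Irs2, the insulin receptor substrate that fasting raises, was at 0.70 (0.60 to 0.80) and Trib1, a pseudokinase, at 0.62 (0.50 to 0.75). Irs1 was at -0.29. Feeding state and hour of harvest are not given for the animals, so their part in these ratios was not tested.

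Sterol synthesis, which is driven by SREBP-2 and shares the Insig proteins with lipogenesis, had a median of -0.29 over 11 genes. The highest ratio was Cyp51, a demethylase of the sterol ring, at 0.26. Along the axis in WT, Sqle was the most periportal of the list at 0.25 (0.12 to 0.39), with 0.42 (0.28 to 0.57) in C75S. Fdft1 was the most pericentral in WT at -0.54 (-0.82 to -0.26), and was at -0.05 (-0.36 to 0.25) in C75S. It was named for its extreme value in WT, so a weaker slope in C75S cannot be told apart from that choice.

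**Figure D5:**
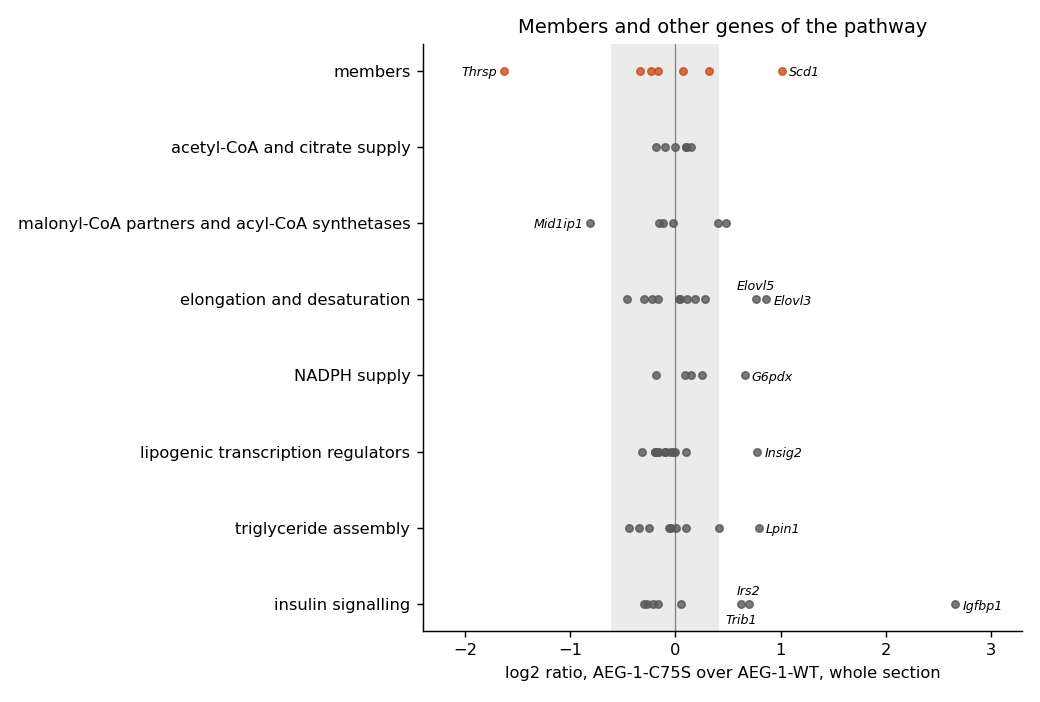
Log2 ratio of C75S over WT (horizontal axis) of each gene with at least 50 UMIs, by list (vertical axis, the members and 7 of the 9 lists), with the members in orange, the other genes in dark grey and names for genes past 0.5. The grey band holds 90% of all genes, from -0.60 to 0.40, and Thrsp at -1.63, Scd1 at 1.01 and Igfbp1 at 2.66 lie farthest from it.

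Other cell types were checked because adipose tissue expresses these genes too and bile ducts lie at the portal end of the axis. The 6 adipocyte markers summed to 22.4 CPM in WT and 19.8 CPM in C75S, against 701 and 1412 CPM of Scd1 alone. Nearly all of that sum was Fabp4, which endothelium and macrophages also express, with 921 UMIs in WT and 783 in C75S. Cidec, a lipid droplet gene also found in fatty hepatocytes, had 21 and 39 UMIs, a log2 ratio of 0.91 (0.11 to 1.75), and was the 1 higher of the 2 adipocyte markers that reached 50 UMIs. Adipoq had 2 UMIs in each section, Plin1 2 and 0, Lep 1 and 0, and Retn 0 in both. The 5 cholangiocyte markers summed to 129 CPM in WT and 96.6 CPM in C75S, with 2 of 5 lower, and ran along the axis from 262 to 30.8 CPM in WT and from 155 to 37.1 CPM in C75S (169.6 CPM in bin 2), in the direction of Acly and Fasn. The 10% of spots richest in cholangiocyte and fibroblast markers were then left out. The portal to central log2 ratios of Acly, Fasn, Acaca and Thrsp were 1.10, 0.51, 0.52 and 0.58 in WT. In C75S they were 0.96, 0.58, 0.51 and 0.41. The same members were past 0.5 in each section, but Fasn in WT fell from 0.62 to below its counting interval (0.52 to 0.73). The fibroblast markers had the larger sum, 412 CPM in WT against 129 CPM. They ran from 390 to 363 CPM along the axis in WT and from 313 to 431 CPM in C75S. The filter thus did not single out bile ducts, whose part in the slopes was not tested.

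The summed markers of Kupffer cells were at 815 CPM in WT and 1088 CPM in C75S with 1 of 5 higher, those of fibroblasts and stellate cells at 412 and 397 CPM with 4 of 7 lower, those of endothelium at 327 and 340 CPM with none past the limit, those of leukocytes at 45.5 and 55.0 CPM with 1 of 4 higher, and those of red blood cells at 611 and 404 CPM with 2 of 3 lower. The near-equal sums of fibroblasts and stellate cells hide opposite directions. Col1a1, Mgp, Dpt and Col3a1 were at log2 ratios of -1.58, -1.51, -1.48 and -0.68. Reln, Dcn and Colec11 were at 0.37, 0.35 and 0.07. The part of all these cell types in the ratios of the members was not tested.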

How the data were processed

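The authors made the deposited tables with Space Ranger 2.0.1 on mm10 (the submitters' processing notes also name Seurat 4.3.0), and they hold raw UMI counts per gene and spot, not normalized. The first row of each of 11 repeated symbols was used. As in the methods, spots with over 50000 UMIs or outside 100 to 7000 genes were removed, 7 in WT and 4 in C75S. UMIs were summed per section and per bin and scaled to CPM with python 3.11.15, pandas 2.3.3, numpy 2.4.6 and scipy 1.17.1. TMM factors were those of edgeR 4.0.16 under R 4.3.3. Sums carry exact Poisson intervals and ratios intervals obtained by inverting a binomial test of both sums. Simulated Poisson counts were used to check how the intervals are calculated. They lack the variance beyond Poisson of the counts over spots, so that check says nothing about it. With 1 section per genotype and nothing to tell animals from genotypes, no test was made.

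The members and lists were chosen with earlier results of these data known. Named genes were all members, the genes with the extreme ratios of each list among those with at least 200 UMIs, the markers, and the genes most like Fasn and the members' mean. Elovl3, G6pdx, Irs2, Trib1, Mlxipl and Nr1h3 were named after their values were seen. Some genes that the rule or the counts would name are not reported here. Mpc1, Tecr, Taldo1 and Fdps were not analysed here. The 15 alternatives covered the spot filter, weights, scaling, depth, marker-rich spots, the axis, the minimum and the threshold. Gene positions came from GENCODE and promoters from RefSeq. Part of the Thrsp window lies inside the GENCODE gene, and that part holds both of the marked CCAAT matches.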

Additional observations from a re-analysis of the deposited data

Results flagged for a closer look

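Scd1 had a portal to central log2 ratio of -0.10 (-0.15 to -0.05) in WT and 0.13 (0.09 to 0.17) in C75S, of opposite sign in the 2 sections and each beyond counting error. The slopes differed by 0.23 (0.16 to 0.29) in C75S against WT, an interval for counting error only, and with 1 section per genotype the difference was not tested. With totals that left out the 20 most abundant genes, the ratios were 0.02 and 0.24, so that the opposite signs depend on the scaling. With Hal and Cyp1a2 as the genes of the axis, they were -0.003 in WT and 0.14 in C75S. The WT ratio was then close to 0, so that the opposite signs depend on the axis too. The gap between the sections was present in each case, but narrower with Hal and Cyp1a2. Totals that left out the abundant genes shift every gene of a section alike, so they could barely change this gap. Both ratios were small beside the difference in the level of Scd1 between the sections, a log2 ratio of 1.01.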

How the results depend on the processing

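With 1 section per genotype, spread between animals could not be measured, and depth limits Pnpla3, Srebf1 and Me1 most. Every member with a ratio is far above any minimum of UMIs tried. The counts and the median were recomputed in the 13 settings that can change some of them. Of these values, 85 were within 1.5 times or the counting interval of the reported value and 5 were not. The limits of 0.3 and 1 cannot change the median, which is among the 85 there by construction. No sign was lost for the ratios of Scd1 and Thrsp between the sections, which lay between 1.01 and 1.07 and between -1.68 and -1.57. With each spot thinned to 3000 UMIs, the median log2 ratio of the members was 0.064 in place of -0.17. The median member was Srebf1, which then had 344 UMIs in WT and 337 in C75S, fewer counts by construction. With a limit of 0.3 in place of 0.5, 2 members were higher and 2 lower in C75S, in place of 1 and 1. At that limit 7.94% of all genes were higher and 16.0% lower. With a limit of 1, 1 member was periportal in WT and 0 in C75S, in place of 4 and 3. The limit of 1 took in 1.54% of genes in WT and 0.988% in C75S. Of the values of single members 153 moved by less than counting error and 29 by more. Totals without the 20 most abundant genes shifted the median portal to central log2 ratio of all genes by 0.12 in WT and 0.11 in C75S, and Scd1 in WT was then at 0.02. These totals shift every gene of a section by the same amount. The 0.02 by which Scd1 in WT lay above that median was thus the same in either scaling by construction. The log2 ratio of Me1 along the axis was -0.01 in WT and -0.11 in C75S, and its interval includes 0 in both sections. It was 0 or above in 4 settings in WT and above 0 in 1 in C75S. Between the sections, TMM factors shifted the median of all genes by 0.06. No paired analysis was possible because each genotype had 1 section.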
